A study of Homo sapiens with 6 samples.

Results

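The lists of open chromatin from cells depleted of Zn2+ with TPA were compared directly with those from cells given ZnCl2. TPA, tris(2-pyridylmethyl)amine, is a cell-permeable Zn2+ chelator, and ZnCl2 raises the Zn2+ available inside the cell. All cells were MCF10A, an established, non-tumorigenic human mammary epithelial line. They were treated for 30 min with 50 µM TPA or 30 µM ZnCl2, after a pre-incubation in phosphate-free buffer that every group shared. Each treatment had 2 libraries, so that 4 of the 6 libraries of the series were compared, and the 2 libraries of untreated cells served only as background values. The study's methods call the replicates biological and its results call them technical, so p-values measure only the spread between these libraries. ATAC-seq marks open chromatin by the fragments that the transposase Tn5 releases from accessible DNA. Open regions had been called in each library separately, each with a position on hg38 and a score. The 4 lists on chromosomes 1 to 22 and X were merged where calls overlapped or touched, leaving out chromosome 20 from 28.5 to 50.0 Mb, where ZnCl2 replicate 2 had no call and the other 3 libraries had between 401 and 453. This gave 46657 merged regions with all calls, of 48988 when the untreated libraries were merged in as well, and 25270 merged regions when each list was limited to its 18887 highest scores. The first are called the full lists below and the second the equal lists.

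Zn2+ is a structural cofactor of zinc finger proteins, the largest class of human transcription factors, which includes CTCF and the KLF and SP families. CTCF binds insulators and, with cohesin, anchors chromatin loops. KLF and SP factors bind GC-rich boxes in promoters, and AP-1, a dimer of FOS and JUN family proteins without zinc fingers, binds many enhancers of epithelial cells. Cells buffer Zn2+ with metallothioneins, export it from the cytosol through SLC30A transporters and import it through SLC39A transporters.

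Short stretches of regions called in one treatment only give examples of the motifs that are counted below. The first 3 lie at the centers of regions called in both TPA libraries and neither ZnCl2 library, and the last at the center of a region with the reverse pattern. They were chosen after the values were seen, from the 255 TPA and 311 ZnCl2 regions absent from both full lists of the other treatment, described below. They are the highest ranked intronic or nongenic regions with a match to AP-1 for TPA and to the CTCF core for ZnCl2. Such a match was counted in 47 TPA and 6 ZnCl2 regions of these sets. The examples were picked for their match and do not show how common it is. None of the sampled 50-base pieces of the printed regions recurs elsewhere in hg38. Capitals mark the match, and the coordinates are those of hg38.

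TPA, intron of TLN2, chr15:62606431-62606590, plus strand: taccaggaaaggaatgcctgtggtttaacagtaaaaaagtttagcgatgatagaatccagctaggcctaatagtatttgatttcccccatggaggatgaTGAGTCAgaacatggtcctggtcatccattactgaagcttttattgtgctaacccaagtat

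TPA, nongenic, nearest coding gene FOXA2, chr20:22383121-22383280, plus strand: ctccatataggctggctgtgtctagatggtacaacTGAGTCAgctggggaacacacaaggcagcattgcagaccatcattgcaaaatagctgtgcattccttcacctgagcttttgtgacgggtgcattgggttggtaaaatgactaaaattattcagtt

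TPA, intron of LINC02942, nearest coding gene CD55, chr1:207304961-207305120, plus strand: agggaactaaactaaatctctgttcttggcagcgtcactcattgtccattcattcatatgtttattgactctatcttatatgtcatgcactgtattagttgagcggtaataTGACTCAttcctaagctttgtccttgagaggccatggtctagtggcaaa

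ZnCl2, nongenic, nearest coding gene KIF2A, chr5:62223486-62223645, plus strand: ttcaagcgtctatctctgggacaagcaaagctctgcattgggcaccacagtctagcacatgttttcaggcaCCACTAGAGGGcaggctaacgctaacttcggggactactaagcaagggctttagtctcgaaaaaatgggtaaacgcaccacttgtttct

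The region in TLN2, the gene of the adaptor protein talin 2, scored 72 and 96 in the TPA libraries. The region near FOXA2 scored 69 and 80 and lay 201665 bp from the start of that gene, and the region near CD55, a regulator of complement, scored 66 and 79. The region near KIF2A, a kinesin gene, scored 122 and 76 in the ZnCl2 libraries. The GC content of these 160-base windows was 40.6%, 45% and 39.4% for TPA and 48.8% for ZnCl2. All 3 TPA regions overlapped a call in both untreated libraries and the ZnCl2 region overlapped a call in 1 of them.

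The lists differed in length within ZnCl2. After the exclusions, TPA replicates 1 and 2 held 35499 and 40921 regions and ZnCl2 replicates 1 and 2 held 37610 and 18883, while the untreated libraries held 24731 and 44164. TPA replicate 2 had 987 regions over 10 kb, against 155 in TPA replicate 1 and 48 and 56 in the ZnCl2 libraries. The equal lists held between 18645 and 18883 regions, which takes the length of the lists out of the comparison but not other differences in yield. Read depth is unknown, and the part of list length and of wide calls in the results was not tested. In the equal lists the TPA replicates shared 77.3% of the regions called in either, and the ZnCl2 replicates 74.9%. The 4 pairs across treatments shared between 60.1% and 61.8%, below both pairs of replicates. The identity of the cells was checked by promoter calls. Of the 10 basal epithelial markers, 9 had a promoter region called in at least 1 of the 4 libraries, the exception being the annotated start of TP63. No promoter call was found for the 3 endothelial and 4 fibroblast markers, 1 of 5 leukocyte markers (CD14) and 3 of 8 luminal markers (KRT8, KRT18 and FOXA1) had one, and CDKN2A, deleted in MCF10A, had none in any of the 4 libraries.

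Open regions sat less often at promoters with TPA than with ZnCl2. Within the equal lists, the share of regions at a promoter, here 1000 bp directly before an annotated start, was 37.1% and 37.5% in the TPA libraries and 44.4% and 43.0% in the ZnCl2 libraries. The groups did not overlap, and the difference of the means was -6.39 percentage points (exact permutation test, two-sided, p = 0.333, the smallest p that 2 against 2 libraries allow). The untreated libraries lay at 41.0% and 43.5%, between the TPA and the higher ZnCl2 value. The nongenic share was 24% in both TPA libraries and 20.9% and 21.1% in the ZnCl2 libraries, a difference of 3.01 percentage points (exact permutation p = 0.333). Regions were narrower with TPA, with medians of 1400 and 1410 bp against 1780 and 2070 bp, a difference of -520 bp (exact permutation p = 0.333). The untreated libraries had medians of 1330 and 2285 bp, and so lay beyond both ends of the treated values. The TPA libraries had a mean GC content of 52.1% and 51.5%, against 53.9% and 52.1% for ZnCl2. The lower ZnCl2 library lay just above the higher TPA library, and the difference of -1.18 percentage points (exact permutation p = 0.333) was -0.31 without ZnCl2 replicate 1 and -2.05 without ZnCl2 replicate 2. For GC content too the untreated libraries, at 54.0% and 51.0%, lay beyond both ends of the treated values.

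At equal length, 2043 regions were called in both TPA and neither ZnCl2 library, 8.08% of the merged regions, and 2221 in both ZnCl2 and neither TPA library, 8.79%. All 4 libraries called 11975. With 1 library of the own treatment left out, the TPA set held 3332 (without replicate 1) or 3107 (without replicate 2) and the ZnCl2 set 3554 or 3465. The regions of the TPA set lay mostly away from genes' starts. Of them, 184 (9.01%) overlapped a promoter, 840 (41.1%) an intron only and 791 (38.7%) neither a gene nor a promoter. Of the ZnCl2 set, 969 (43.6%) overlapped a promoter, 289 (13.0%) lay in introns and 434 (19.5%) were nongenic. Over all merged regions 36.6% overlapped a promoter and 24.5% were nongenic. The median distance to the nearest start of a coding gene was 57461 bp in the TPA set and 6266 bp in the ZnCl2 set, against 16325 bp over all merged regions.

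**Figure D1:**
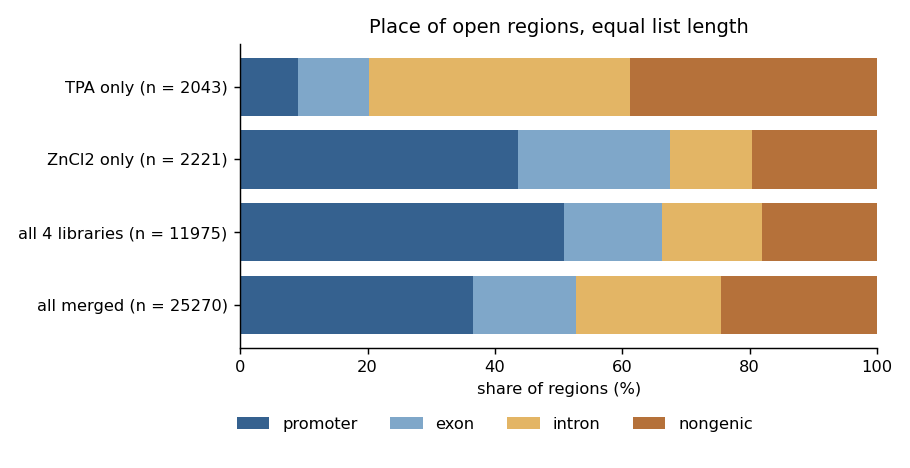
Share of open regions (x axis, percent) that overlap a promoter, else an exon, else an intron, else neither, for regions of the equal lists called only in TPA, only in ZnCl2, in all 4 libraries, and for all merged regions (rows). Promoters make up 9.01% of the TPA row and 43.6% of the ZnCl2 row, and 36.6% of all merged regions.

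Base composition differed in the same direction. Mean GC content was 44.2% ± 6.07 (SD over 2043 regions) in the TPA set and 55.5% ± 7.25 (SD over 2221 regions) in the ZnCl2 set, and 50.4% over all merged regions. Regions with the GC content and CpG density of a CpG island, over the whole region, made up 2.45% of the TPA set and 26.7% of the ZnCl2 set. When the merged regions were divided into 5 equal bins by GC content, the TPA set took 20.2% of the lowest bin and 1.42% of the highest, and the ZnCl2 set 2.36% of the lowest and 18.2% of the highest. Both trends ran through all 5 bins without a turn. Because GC content differed between the sets in this way, motifs were also counted within a band of GC content and ranks taken within bins of it, as given below. Many of the one-treatment regions were also open in untreated cells. Of the TPA set, 668 were called in both untreated libraries, 691 in 1 and 684 in neither, and of the ZnCl2 set 938, 666 and 617.

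With the full lists the counts parted. The TPA set held 4950 regions, 10.6% of the merged regions, and the ZnCl2 set 505, 1.08%. Without ZnCl2 replicate 1 the TPA set held 15391 regions, without TPA replicate 1 it held 9397, and without ZnCl2 replicate 2 the ZnCl2 set held 5445 and without TPA replicate 2 it held 999. When a call had to cover at least 50% of the merged region, the ZnCl2 set held 2179. The composition differed as in the equal lists, with a mean GC content of 42.4% and a promoter share of 3.72% in the TPA set and 54.8% and 25.1% in the ZnCl2 set. A region in the one-treatment sets of the equal lists can still be called with a lower score in the other treatment. Only 255 TPA regions and 311 ZnCl2 regions were absent from both full lists of the other treatment and also held a call in both equal lists of their own. Their mean GC content was 41.5% and 55.6% and their promoter share 4.71% and 27.7%. Both untreated libraries called 173 of the 255 and 117 of the 311, and neither untreated library called 12 and 36.

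The highest ranked of these 255 and 311 regions were often repeated sequence. Of the 8 TPA regions with the highest mean percentile, 6 had at least 1 of 5 sampled 50-base pieces elsewhere in hg38, and so did 6 of the 8 ZnCl2 regions, so that reads there cannot be placed with certainty. The TPA regions without such a piece were the promoter of CHD1, a chromatin remodeler, and the intron of TLN2 shown above. The CHD1 region, chr5:98926938-98930355, scored 74 and 95, at percentiles of 77.7 and 88.8 in the TPA lists. The other 6 lay at GLIDR, LINC00623, NPIPB11, NOTCH2NLC and PLD5 and across the ASH1L promoter, where a single merged region ran over 31860 bp. The top ZnCl2 region, chr5:100049130-100049804, lay on the mitochondrial pseudogene MTND4P35 and scored 5513 and 2756. A nongenic region 82818 bp from the start of PRSS1 scored 4535 and 2318, and a pair on the short arm of chromosome 21, of which one held MIR6724-2, scored 2324 and 725, and 956 and 366. The remaining ones lay near FAM72C, at the HERC2 promoter, near PPIAL4F and near PAGE5. Among the 8 TPA regions the highest scores were those at GLIDR, 191 and 217.

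Motifs were counted in the central 300 bp of each region of the equal lists, on both strands. The AP-1 motif, TGANTCA, was found in 869 of 2043 TPA regions (42.5%) and in 246 of 2221 ZnCl2 regions (11.1%), against 23.7% of all merged regions. Motifs of other factors active in epithelial enhancers leaned the same way by less. TEAD, GGAATG, was found in 22% and 13.9% (17.7% of all) and RUNX, TGTGGT, in 24.4% and 13.7% (18% of all). The core motif of CTCF was found in 11 TPA regions (0.54%) and 85 ZnCl2 regions (3.83%), against 1.48% of all merged regions. The KLF/SP box, GGGCGG, was found in 6.61% and 44.4%, against 30.1% of all.

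The windows differed in base composition, with a mean GC content of 44.8% in the TPA set and 61.4% in the ZnCl2 set. The counts were therefore repeated over windows with 45% to 55% GC, 682 of TPA and 488 of ZnCl2. There AP-1 was found in 42.4% of TPA and 24% of ZnCl2 windows (33.4% of all merged regions in the band). The CTCF core was found in 1.03% and 4.71% (1.6% of all in the band), so both contrasts were also present within the band. The band narrows the range of GC content but does not equalize it, and the mean GC content of the sets inside it was not compared. The KLF/SP box was found in 6.01% and 11.5% (10.2% of all in the band), a smaller gap than without the band. The metal response element, bound by the zinc sensor MTF-1, was searched as TGCGCNC and TGCACNC. The first was found in 2.84% and 18.1% of the sets but in 2.93% and 3.07% within the band, and the second in 14% and 14.8%. A p53 site was found in 3 TPA regions and in no ZnCl2 region, and in 14 of all 25270. A match is a run of letters and not evidence of binding.

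Each library's own equal list gave the same order. AP-1 was found in 29.2% and 29.6% of the regions of the TPA libraries and in 19.5% and 19.2% of those of the ZnCl2 libraries. The untreated libraries had 25.6% and 19.6%, and so reached from the ZnCl2 level to below TPA. The CTCF core was found in 0.93% and 0.84% with TPA and 1.70% and 1.40% with ZnCl2, with 1.30% and 1.08% in untreated cells, between the treatments. The KLF/SP box was found in 33.7% and 32.2% with TPA and 40.4% and 36.1% with ZnCl2. Untreated cells spanned 39.4% and 33.3%, so for this motif the 2 untreated libraries differed from each other by more than the nearest libraries of the treatments.

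**Figure D2:**
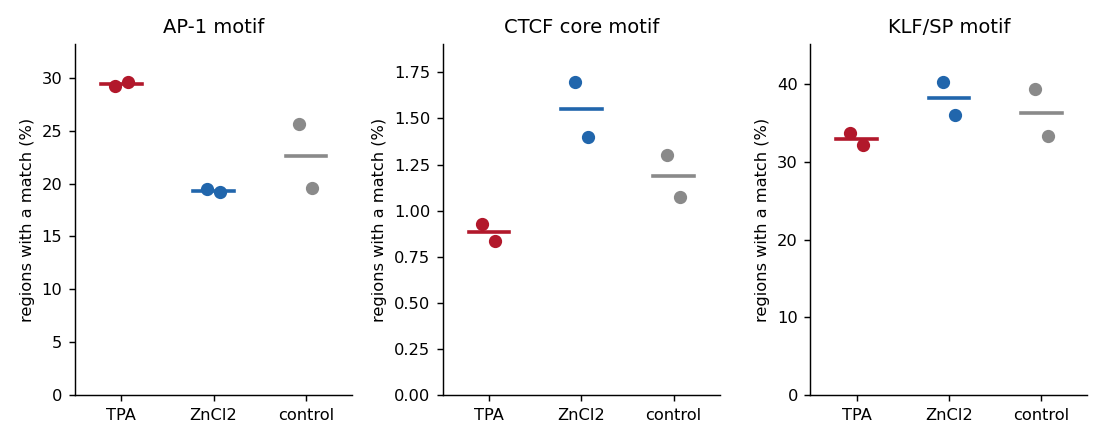
Share of regions with a motif match in the central 300 bp (y axis, percent, from 0), in the equal list of each library. Points are libraries and bars the mean of 2, with AP-1 at 29.2% and 29.6% in TPA against 19.5% and 19.2% in ZnCl2, and the CTCF core at 0.93% and 0.84% against 1.70% and 1.40%.

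Regions called in all 4 libraries allow a comparison of rank in place of presence. In the full lists 16864 regions were shared. In each library the score was ranked over the shared regions and turned into a normal score, and TPA and ZnCl2 were compared by limma with Benjamini-Hochberg adjustment. A positive difference means a higher rank with TPA, which is a relative place in the library and not an absolute level. The normal scores of the TPA replicates correlated at 0.90 and those of the ZnCl2 replicates at 0.85 over these regions, and pairs across treatments at 0.64 to 0.66, with regions of one library not being independent. Below an adjusted p of 0.05, 1102 regions (6.53%) ranked higher with TPA and 1414 (8.38%) higher with ZnCl2. Both TPA libraries ranked above both ZnCl2 libraries at 31.5% of the shared regions and below both at 31.7%. With a library left out, its group held 1 library, so calls lost there cannot be told apart from lost power. None was left in either direction without TPA replicate 1, without TPA replicate 2 or without ZnCl2 replicate 2, where between 1676 and 3324 regions per direction had an unadjusted p under 0.05, and 716 and 639 were left without ZnCl2 replicate 1.

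The shift followed the place of the region. At the 7793 shared promoter regions the median difference was -0.20, with 147 higher in TPA and 899 higher in ZnCl2. At the 2979 intronic regions it was 0.40, with 395 and 67, and at the 3285 nongenic regions 0.34, with 391 and 147. Exonic regions stood at -0.04, with 169 and 301 of 2807. The TPA calls had a mean GC content of 45.4% ± 5.79 and the ZnCl2 calls 56.4% ± 6.10 (SD over regions). In the lowest of 5 bins of GC content 558 regions ranked higher with TPA and 46 with ZnCl2, and in the highest bin 36 and 604. Over the shared regions, the difference correlated with GC content at -0.44. Within a library the normal score correlated with GC content at -0.03 and -0.09 for TPA and at 0.30 and 0.25 for ZnCl2, and the difference between replicates correlated with it at 0.13 for TPA and 0.11 for ZnCl2.

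When ranks were taken only within 20 bins of like GC content, an alternative chosen after seeing the data, 410 regions ranked higher with TPA and 594 with ZnCl2. Of these, 355 and 510 were among the calls made without bins, and no call changed its sign. Promoters still shifted toward ZnCl2, at a median of -0.09, and introns and nongenic regions toward TPA, at 0.18 and 0.16. CpG island-like promoters went from a median of -0.34 to -0.02, while the other promoters stood at -0.15 and -0.12. The windows of the shared regions repeated the motif contrast. AP-1 was found in 33.8% of the regions that ranked higher with TPA and 5.45% of those higher with ZnCl2, against 18.8% of all shared regions. Within 45% to 55% GC the shares were 33.9% and 10.0%, against 29.5%. The CTCF core was found in 0.54% and 2.19%, against 1.11%. The median difference was 0.36 at shared regions with an AP-1 match and -0.42 at those with a CTCF core match.

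**Figure D3:**
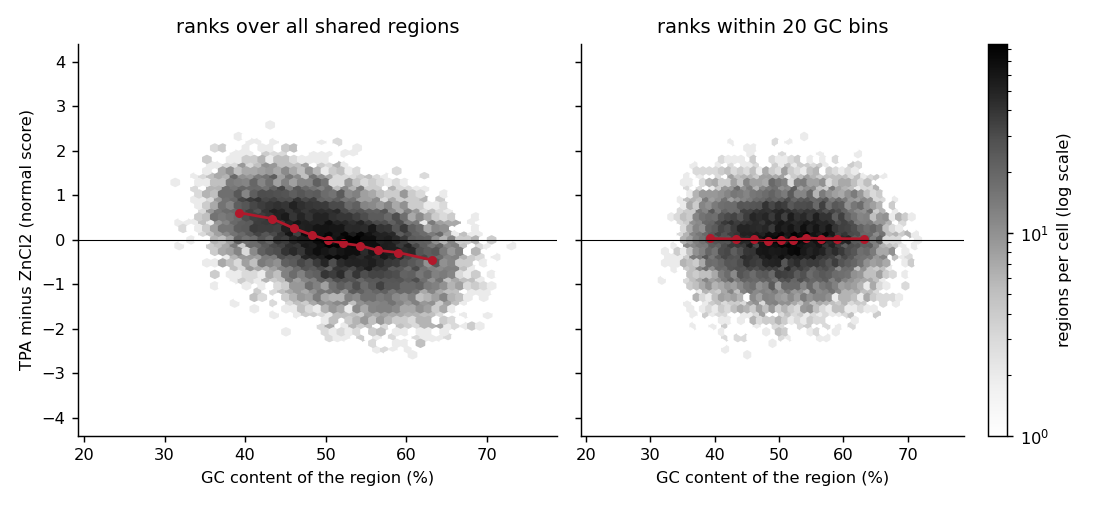
Difference in normal score, TPA minus ZnCl2 (y axis), against GC content of the region (x axis, percent) for the 16864 shared regions, with ranks over all shared regions (left) and within 20 bins of GC content (right). Grey shows the number of regions on a log scale and the red line joins medians of 10 equal bins of the regions, falling with GC on the left and flat on the right by construction.

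Of the 8432 protein-coding genes with a promoter in a shared region, 121 (1.44%) had one that ranked higher with TPA and 931 (11.0%) one that ranked higher with ZnCl2. The 10 genes with the largest difference toward TPA were of mixed function, and their values are percentiles of the score among the shared regions of a library. COL16A1, a collagen chain, was at 75.5 and 65.4 in the TPA libraries and at 9.72 and 2.13 in the ZnCl2 libraries, a difference of 2.21 ± 0.32 (SE, adjusted p = 0.0186), in the region chr1:31699711-31705920. The value of 2.13 is the lowest score that ZnCl2 replicate 2 reports, shared by many regions. RHOBTB2, PTGR2, MCPH1 and SLMAP share it, as does H4C3 below, so these differences rest in part on a score at the floor. NDRG1, a stress-responsive gene, was at 84.1 and 88.1 with TPA and at 12.1 and 24.9 with ZnCl2 (2.01 ± 0.28, adjusted p = 0.0185), in chr8:133302171-133304340. For both genes each TPA library stood far above each ZnCl2 library. SLMAP, which encodes a membrane-associated protein, was at 40.9 and 40.7 with TPA and at 2.16 and 2.13 with ZnCl2. PTPRH, a receptor tyrosine phosphatase, was at 84.7 and 82.2 against 23.2 and 21.5. CFAP206, a ciliary gene, was at the top of the list in TPA, at 99.9 and 99.7, and at 91.3 and 70.1 with ZnCl2. The TPA libraries differed most at PTGR2, a prostaglandin reductase, with 24.8 and 68.9 against 3.17 and 2.13. The other 4 were RHOBTB2, UHMK1, MCPH1 (microcephalin) and ALKBH3, a DNA alkylation repair enzyme, and all 10 differences lay between 1.74 and 2.21. At CFAP206 and PTPRH 1 of 5 sampled 50-base pieces of the region recurs elsewhere in hg38. Under ranks within GC bins, 8 of the 10 stayed below an adjusted p of 0.05, and UHMK1 (1.83, adjusted p = 0.0541) and PTGR2 (1.76, adjusted p = 0.0566) did not, although their differences stayed about as large. Without ZnCl2 replicate 2, ranks were taken over 27305 shared regions in place of 16864, so the sizes also reflect another set of regions. All 10 differences were then smaller. They were 1.26 at COL16A1, 1.03 at RHOBTB2, 1.03 at UHMK1, 1.11 at PTGR2 and 0.84 at MCPH1. SLMAP stood at 1.13, ALKBH3 at 1.02, NDRG1 at 1.64, CFAP206 at 1.38 and PTPRH at 1.26.

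The 10 genes with the largest difference toward ZnCl2 had low ranks in TPA, most of them very low. GLIPR2 was at 0.24 and 0.36 with TPA and at 47.1 and 52.3 with ZnCl2, a difference of -2.74 ± 0.24 (SE, adjusted p = 0.0185), in chr9:36135251-36138010. PATJ, a scaffold of epithelial polarity, was at 0.80 and 2.19 with TPA and at 70.6 and 59.8 with ZnCl2 (-2.61 ± 0.27, adjusted p = 0.0185), in chr1:61741201-61745120. SNPH, which anchors mitochondria in axons, was at 0.24 and 0.64 against 44.4 and 50.2. RAB43, a small GTPase, was at 4.94 and 16.3 against 84.8 and 92.7. ZNF777, a zinc finger gene, was at 0.80 and 1.70 against 64.7 and 56.2. At KCTD1 the ZnCl2 libraries stood apart from each other, at 71.4 and 14.3, above 0.80 and 0.12 in TPA. TMEM255B, NHSL1, RAVER2 and TEX261 completed the group, with all 10 differences between -2.74 and -2.47. The value of 0.24 in TPA replicate 1 is a tied score near the bottom of the list. GLIPR2, SNPH, TMEM255B and NHSL1 share it, as do CXCL3 and ZNF550 below, so these differences rest on scores near the floor. In this group 8 of 10 stayed below an adjusted p of 0.05 within GC bins, and TMEM255B (-2.18, adjusted p = 0.0743) and KCTD1 (-2.17, adjusted p = 0.0609) did not. TMEM255B stood at -1.69 without TPA replicate 1.

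**Figure D4:**
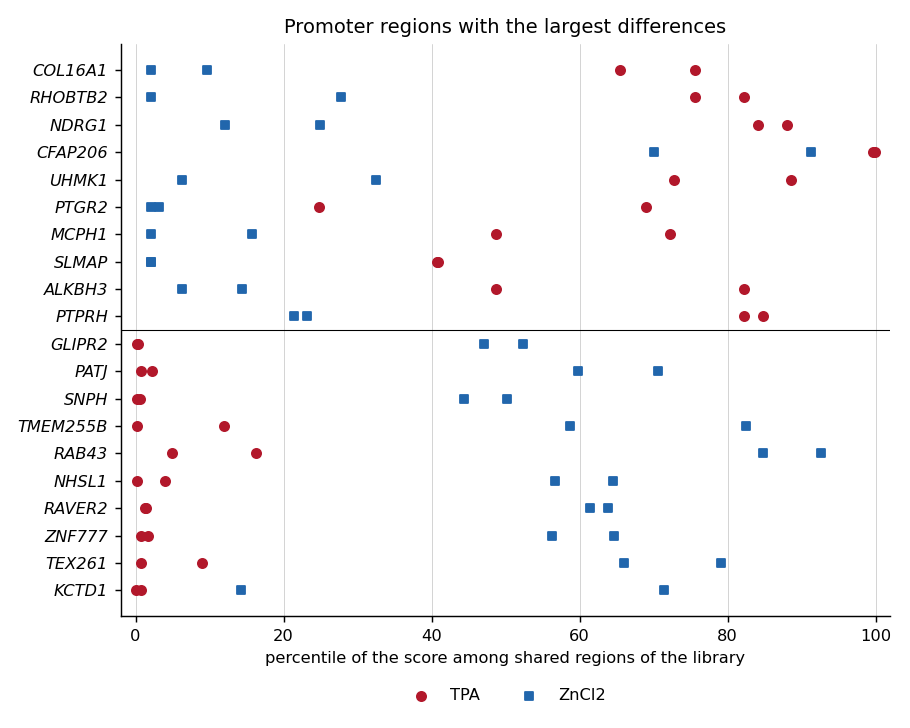
Percentile of the score among the shared regions of each library (x axis) at the promoter regions of the 10 genes with the largest difference toward TPA (upper rows) and toward ZnCl2 (lower rows). Circles are the TPA and squares the ZnCl2 libraries, 2 of each, and in every row both libraries of one treatment lie above both of the other.

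The 250 bases before the start show the base composition of these promoters. RefSeq sequences with a start within 10 bp of the one used here were at hand for 8 of the 20 genes, 3 higher with TPA and 5 higher with ZnCl2. All 3 of TPA and the first 2 of ZnCl2 are printed, with CCNE1, described below. They come from RefSeq on GRCh38.p14, are written 5′ to 3′ on the strand of the gene, and carry the KLF/SP box or its complement in capitals. CFAP206, PTGR2 and PTPRH ranked higher with TPA, and the others higher with ZnCl2.

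CFAP206, chr6:87407722-87407971, plus strand: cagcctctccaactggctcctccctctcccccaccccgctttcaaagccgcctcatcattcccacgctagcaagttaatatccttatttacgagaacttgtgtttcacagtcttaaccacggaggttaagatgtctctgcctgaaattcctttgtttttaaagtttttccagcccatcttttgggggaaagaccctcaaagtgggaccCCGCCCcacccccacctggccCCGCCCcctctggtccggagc

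PTGR2, chr14:73851581-73851830, plus strand: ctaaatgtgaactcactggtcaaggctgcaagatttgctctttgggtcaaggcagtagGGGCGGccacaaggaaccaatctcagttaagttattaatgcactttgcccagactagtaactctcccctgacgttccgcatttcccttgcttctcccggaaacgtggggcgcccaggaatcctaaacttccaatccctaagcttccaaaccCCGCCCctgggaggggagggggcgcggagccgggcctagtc

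PTPRH, chr19:55209502-55209751, minus strand: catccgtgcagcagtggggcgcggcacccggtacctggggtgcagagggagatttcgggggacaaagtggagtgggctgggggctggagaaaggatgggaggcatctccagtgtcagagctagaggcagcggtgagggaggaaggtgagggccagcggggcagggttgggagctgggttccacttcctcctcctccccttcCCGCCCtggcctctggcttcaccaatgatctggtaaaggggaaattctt

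GLIPR2, chr9:36136286-36136535, plus strand: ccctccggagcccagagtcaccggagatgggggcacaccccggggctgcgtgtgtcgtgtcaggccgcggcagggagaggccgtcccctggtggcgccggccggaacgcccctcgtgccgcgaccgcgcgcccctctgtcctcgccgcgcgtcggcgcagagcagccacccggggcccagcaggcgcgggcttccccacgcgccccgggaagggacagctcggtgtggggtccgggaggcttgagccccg

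PATJ, chr1:61742230-61742479, plus strand: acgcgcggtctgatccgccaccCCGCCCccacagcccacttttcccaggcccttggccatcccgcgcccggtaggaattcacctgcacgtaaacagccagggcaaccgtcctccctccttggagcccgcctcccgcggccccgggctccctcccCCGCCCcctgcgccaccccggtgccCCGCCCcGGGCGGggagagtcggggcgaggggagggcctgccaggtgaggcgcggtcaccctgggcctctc

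CCNE1, chr19:29811741-29811990, plus strand: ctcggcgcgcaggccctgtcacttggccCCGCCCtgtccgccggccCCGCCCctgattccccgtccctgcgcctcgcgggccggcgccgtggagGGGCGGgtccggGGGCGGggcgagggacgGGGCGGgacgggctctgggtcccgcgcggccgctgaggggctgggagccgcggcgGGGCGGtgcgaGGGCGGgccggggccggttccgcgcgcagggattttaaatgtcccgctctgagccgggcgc

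The GC content was 54.0%, 55.6% and 63.2% in the 3 TPA promoters and between 73.2% and 79.2% in the 5 ZnCl2 promoters, with TMEM255B, RAVER2 and TEX261 counted though not printed. CCNE1 stood at 81.2%, and RPS12, a list gene higher with TPA that is also not printed, at 61.2%. The number of CpG pairs was 8, 10 and 8 in the TPA promoters and between 24 and 33 in the ZnCl2 promoters. The box was found 2, 2 and 1 times in the TPA promoters and between 0 and 4 times in the ZnCl2 promoters, and 7 times in CCNE1. It was found in 42.6% of all 35116 RefSeq promoters of this length, whose mean GC content was 57.2%.

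Promoters of 9699 coding genes overlapped a merged region of the equal lists, of which 173 (1.78%) lay in a region called only in TPA and 935 (9.64%) in one called only in ZnCl2. Both TPA libraries ranked above both ZnCl2 libraries at 17.1% of the 8432 promoters in shared regions, and both ZnCl2 libraries above both TPA libraries at 43.4%. Few of the genes that handle Zn2+ passed the test against this background. Of the 11 metallothionein genes, 4 had a call in any of the 4 libraries and 2 lay in shared regions, and neither passed the test. MT2A, the main metallothionein gene of many tissues, was at 63.2 and 70.0 with TPA and at 65.6 and 81.0 with ZnCl2 (-0.21 ± 0.27, adjusted p = 0.63), so that the groups overlapped. MT1E was at 16.0 and 8.05 with TPA and at 75.7 and 24.9 with ZnCl2 (-1.21 ± 0.45, adjusted p = 0.114), in a merged region that ran from 56619931 to 56631200 on chromosome 16, and its promoter was called only in ZnCl2 in the equal lists. This was 1 of 4 metallothionein promoters in the equal lists (25%, against 9.64% over all promoters). Metallothionein genes are near-identical copies of each other, which limits the placing of reads.

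None of the 6 exporter promoters in shared regions passed the test. SLC30A1, the exporter of the plasma membrane, stood near the top in every library, at 99.0 and 98.9 with TPA and at 99.1 and 98.9 with ZnCl2. SLC30A4 was at 14.7 and 2.74 against 58.8 and 28.2 (-1.31 ± 0.40, adjusted p = 0.0691). It was called only in ZnCl2 in the equal lists, 1 of 6 exporter promoters there (16.7%, against 9.64% over all promoters). Of 9 importers, 1 ranked higher with ZnCl2, a share of 11.1% against 11.0% over all promoters. This was SLC39A4, an importer of dietary zinc, at 31.2 and 26.6 with TPA and at 76.3 and 86.3 with ZnCl2 (-1.46 ± 0.26, adjusted p = 0.0226), and it stood at -0.90 within GC bins (adjusted p = 0.0827). Of 11 importer promoters in the equal lists, 3 (27.3%, against 9.64% over all promoters) were called only in ZnCl2, SLC39A8, SLC39A2 and SLC39A11. The promoter of SLC39A9 alone was called only in TPA (9.09%, against 1.78% over all promoters). SLC39A2 was also called only in ZnCl2 in the full lists. The shared region at SLC39A8 leaned the other way, at 54.8 and 60.0 with TPA and 18.6 and 43.1 with ZnCl2 (0.72 ± 0.31, adjusted p = 0.152). A promoter is read from its highest ranked region there and from its most overlapping region in the equal lists, and the cause of the disagreement was not tested.

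AP-1 and other immediate early genes, which respond within minutes to many stimuli, stood near the background as a list. Of 21 promoters, 3 (14.3%, against 11.0% over all promoters) ranked higher with ZnCl2 and none higher with TPA, against 1.44%. The median difference was -0.18, against -0.20 over all 8432 promoters. The 3 were JUND, at 85.4 and 76.1 with TPA and 97.8 and 97.8 with ZnCl2 (-1.14 ± 0.25, adjusted p = 0.0339), KLF2 (-1.21) and IER3 (-1.11), and none stayed below 0.05 within GC bins. FOS was at 42.4 and 71.1 with TPA and at 45.7 and 54.3 with ZnCl2, and EGR1 at 99.4 and 99.4 with TPA and at 99.6 and 99.7 with ZnCl2.

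The stress response lists held calls at about the shares over all promoters, 11.0% for ZnCl2 and 1.44% for TPA, or below them. The 12 promoters of antioxidant genes that NRF2 controls had a median difference of -0.46. NQO1 was at 70.5 and 74.3 with TPA and at 91.5 and 92.7 with ZnCl2 (-0.82 ± 0.24, adjusted p = 0.063). Of 17 heat shock chaperone promoters, 1 (5.88%) ranked higher with ZnCl2, HSP90AB1, at 24.8 and 28.2 against 72.1 and 72.5 (-1.22 ± 0.24, adjusted p = 0.0261), and the median was 0.02. Of 20 promoters of p53 target genes none passed the test in either direction. CDKN1A, the cell cycle inhibitor p21, was at 16.0 and 8.93 with TPA and at 47.1 and 34.6 with ZnCl2 (-0.94 ± 0.27, adjusted p = 0.0604). Its promoter was called only in ZnCl2 in the equal lists, as was that of TIGAR (in the full lists too), while that of BAX was called only in TPA. Of 25 p53 target promoters in the equal lists, these were 2 (8%, against 9.64% over all promoters) for ZnCl2 and 1 (4%, against 1.78%) for TPA. Of 9 promoters of NF-kB cytokine and feedback genes, 1 (11.1%) ranked higher with ZnCl2, the chemokine gene CXCL3, at 0.24 and 8.05 against 37.0 and 61.4 (-2.09 ± 0.48, adjusted p = 0.0359). Neither stayed below 0.05 within GC bins, where HSP90AB1 stood at -1.09 (adjusted p = 0.0502) and CXCL3 at -1.87 (adjusted p = 0.0678), and CXCL3 was at -1.30 without TPA replicate 1.

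Some zinc finger and chromatin loop genes passed the test. The promoter of CTCF itself ranked higher with ZnCl2, at 96.8 in both libraries, than with TPA, at 61.9 and 71.1 (-1.42 ± 0.25, adjusted p = 0.0221). The promoter of SMC3, a cohesin subunit, ranked higher with TPA, at 67.1 and 78.6 against 34.0 and 17.9 (1.28 ± 0.29, adjusted p = 0.0344). Both calls held within GC bins, but the difference at SMC3 was 0.75 without ZnCl2 replicate 2. They were the only calls among the 12 CTCF and cohesin promoters, 8.33% in each direction, against 11.0% for ZnCl2 and 1.44% for TPA over all promoters. The list median was 0.14. Of 14 promoters of KLF and SP genes, 5 ranked higher with ZnCl2, a share of 35.7% against 11.0% over all promoters, and none higher with TPA, against 1.44%. KLF3 was at 8.79 and 17.4 with TPA and at 90.3 and 78.5 with ZnCl2 (-2.19 ± 0.30, adjusted p = 0.0185). KLF11, KLF12, KLF2 and SP4 followed, with differences of -1.79, -1.36, -1.21 and -0.98. Of the 5, KLF3 alone stayed below 0.05 within GC bins. Of 7 promoters of DNA methylation enzymes and readers, 1 (14.3%, against 11.0% over all promoters) ranked higher with ZnCl2. It was that of ZBTB33, which encodes the methyl-CpG reader Kaiso (-1.04 ± 0.25, adjusted p = 0.0403). Its adjusted p within GC bins was 0.0804. TET2 (-0.33 ± 0.38) and the cohesin gene STAG2 (-0.41 ± 0.30) lay in regions called only in ZnCl2 in the equal lists and did not pass the test.

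The zinc finger genes of chromosome 19 form clusters of repressor genes that arose by duplication. Of 109 promoters in shared regions, 10 (9.17%) ranked higher with ZnCl2, below the 11.0% over all promoters, and none with TPA, against 1.44%. Both ZnCl2 libraries stood above both TPA libraries at 60 (55%, against 43.4% over all promoters). They stood below both at 9 (8.26%, against 17.1%), and the median difference was -0.37. Among 116 in the equal lists, 20 (17.2%, against 9.64% over all promoters) were called only in ZnCl2. None was called only in TPA, against 1.78%, with neighboring genes that share 1 region counted each. ZNF550, at 0.24 and 3.97 with TPA and 38.6 and 31.4 with ZnCl2 (-1.90 ± 0.38, adjusted p = 0.0267), ZNF773 (-1.84), ZNF296 (-1.63) and ZNF587 (-1.16) also held within GC bins, and ZNF550 stood at -1.24 without TPA replicate 1. The other 6, ZNF558, ZNF600, ZNF563, ZNF653, ZNF71 and ZNF599, lay between -1.32 and -1.06 and did not. Among the 20, ZNF432 and ZNF841 were called only in ZnCl2 in the full lists too, and the rest were ZNF136, ZNF30, ZNF790, ZNF345, ZNF585B, ZNF383, ZNF575, ZNF224, ZNF616, ZNF888 and, called by limma as well, ZNF563, ZNF599, ZNF296, ZNF600, ZNF71, ZNF773, ZNF550 and ZNF587. The region at ZNF296 ran from 45048271 to 45084450 on chromosome 19 and covers other starts.

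Ribosomal protein and histone promoters stood on the TPA side of the background. Of 53 cytosolic ribosomal protein promoters, 1 (1.89%, against 1.44% over all promoters) ranked higher with TPA, RPS12 (1.03 ± 0.27, adjusted p = 0.0471). Another 1 (1.89%, against 11.0% over all promoters) ranked higher with ZnCl2, RPL27 (-1.20 ± 0.28, adjusted p = 0.0369), and the median was 0.18. The region at RPS12 spanned 132796331 to 132841050 on chromosome 6, far beyond the promoter. Of 65 in the equal lists, 4 (6.15%, against 1.78% over all promoters), RPS27, RPL35A, RPS18 and RPL21, were called only in TPA. None was called only in ZnCl2, against 9.64% over all promoters, and RPS27 was called only in TPA in the full lists too. Of 40 promoters of replication-dependent histone genes, 1 (2.5%, against 1.44% over all promoters) ranked higher with TPA and none higher with ZnCl2, against 11.0%. It was H4C3, at 23.3 and 18.6 with TPA and 1.42 and 2.13 with ZnCl2 (1.30 ± 0.24, adjusted p = 0.0244). Both TPA libraries were above both ZnCl2 libraries at 18 of the 40 (45%, against 17.1% over all promoters). They were below both at 4 (10%, against 43.4%), and the median was 0.35. Genes that share 1 region were counted each. H4C5 was called only in TPA and H3C15 only in ZnCl2 in the equal lists. Each was 1.85% of 54 promoters there, against 1.78% and 9.64% over all promoters. Histone genes are multicopy, and reads from near-identical copies may be misplaced. Among 30 replication and cell cycle promoters, 1 (3.33%, against 1.44% over all promoters) ranked higher with TPA. It was RRM1, a subunit of ribonucleotide reductase, at 59.0 and 65.4 against 29.3 and 10.4 (1.21 ± 0.31, adjusted p = 0.0449). Another 1 (3.33%, against 11.0%) ranked higher with ZnCl2. This was CCNE1, which encodes cyclin E1, at 84.4 and 86.3 against 21.7 and 16.3 (-1.94 ± 0.24, adjusted p = 0.0185). The list median was -0.09. Within GC bins CCNE1 stayed below 0.05, while RPS12 (0.57, adjusted p = 0.238), RPL27 (-1.23, adjusted p = 0.0531), H4C3 (0.93, adjusted p = 0.0714) and RRM1 (1.33, adjusted p = 0.0607) did not. RPL27 and RRM1 thus kept the size of their differences. Without ZnCl2 replicate 2, RRM1 stood at 0.58 and H4C3 at 0.76.

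**Figure D5:**
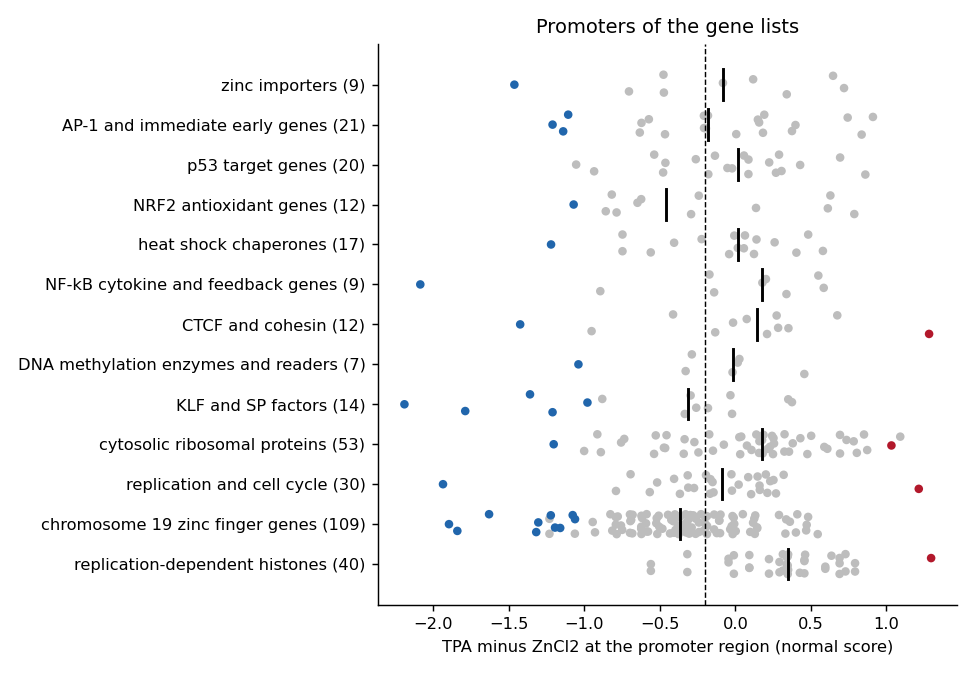
Difference in normal score at the promoter region, TPA minus ZnCl2 (x axis), for the genes of each list with a promoter in a shared region (rows, number of genes in parentheses). Each point is a gene, red or blue where limma called it higher with TPA or ZnCl2 and grey otherwise, short bars are list medians and the dashed line is the median of -0.20 over all 8432 promoters, with chromosome 19 zinc finger genes at -0.37 and histones at 0.35.

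Among the basal epithelial markers 4 promoters lay in shared regions and none passed the test. LAMB3, a laminin chain of the basement membrane, was at 99.6 and 99.4 with TPA and at 98.9 and 98.4 with ZnCl2. ITGB4, which encodes the integrin of hemidesmosomes, was at 23.3 and 10.9 against 60.9 and 45.7 (-1.07 ± 0.29, adjusted p = 0.0533). The promoter of KRT5, a keratin of basal cells, was called only in TPA in the equal lists, 1 of 8 basal promoters there (12.5%, against 1.78% over all promoters). Of 3 luminal promoters in shared regions, 1 (33.3%, against 1.44% over all promoters) ranked higher with TPA. It was that of FOXA1, a luminal pioneer factor, at 23.3 and 42.3 against 6.65 and 6.30 (1.05 ± 0.28, adjusted p = 0.049, and 0.0417 within GC bins). With a trend and robust prior its adjusted p was 0.0694, and without ZnCl2 replicate 2 its difference was 0.54.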

How the data were processed

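Per the labels and methods, the authors trimmed reads with BBDuk, mapped them to hg38 with HISAT2 2.1.0, used SAMtools 1.8 and FastQC 0.11.8, combined sequencing runs and ran HMMRATAC on every library by itself. The deposited lists hold a whole-number score of at least 30 for each region, whose kind is not given in the sources used here. Blacklisted regions were not removed, and depth is unknown. Members and lists were chosen with earlier results of these data known.

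Scores were ranked in each list. Ties at the end of the equal lists were broken at random with a fixed seed. Places came from the 40530 genes of GENCODE release 44 that are also in RefSeq, and sequence from hg38. A promoter took the shared region with the highest mean percentile and, in the equal lists, the region with most overlap. Ranks were tested with limma 3.58.1 (R 4.3.3) and library values with exact permutation tests (Python 3.11.15). Merging was checked with bedtools 2.31.1, the limma test was run on simulated data, and the motif search was tried on planted sites. Named promoters were, in each direction, the 10 coding genes with the largest difference below an adjusted p of 0.05. Named regions were the 8 with the highest mean percentile, and list genes were those called, of which 1 is not reported here. Alternatives covered list length, scale, overlap, width, the chromosome 20 segment, bins of GC content or width, and leaving out each library.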

Additional observations from a re-analysis of the deposited data

How the results depend on the processing

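The kind of score and the depth of the libraries are unknown, and 2 libraries per treatment limit every test. The differences in promoter share, nongenic share, width and GC content kept their direction under all alternatives run. Among the counts, the equal lists gave 2043 TPA and 2221 ZnCl2 regions, all regions of each list 4950 and 505, and the upper 50% of each list 2999 and 556. With a call covering at least 50% of the merged region the ZnCl2 count of the full lists went from 505 to 2179. Leaving out each library in turn gave 2855 to 3332 TPA and 2889 to 3554 ZnCl2 regions in the equal lists, and 5095 to 15391 and 639 to 5445 in the full lists, fewer libraries being asked to agree. Chosen after seeing the data, dropping tied scores gave 1988 and 2253.

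For the shared regions, 1102 and 1414 by limma became 410 and 504 with the equal lists (11975 regions tested), 1759 and 1920 with a trend and robust prior, and 410 and 594 within bins of GC content. Bins of covered width gave 889 and 1117, and quantile-normalized scores 1651 and 1826. With percentiles of the whole list, 8 and 3 were left (2302 and 552 at an unadjusted p under 0.05). On that scale the median over all shared regions was 0.29 toward TPA, and the cause was not tested. Leaving out each library gave 0 to 716 and 0 to 639. Of the 50 promoters that were followed by name, none changed direction, and 25 lost the call within GC bins, 50 with percentiles of the whole list, and 50 without TPA replicate 1, TPA replicate 2 or ZnCl2 replicate 2.

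Deviations of same-numbered libraries correlated at 0.06 over the shared regions, which cannot settle whether replicate numbers pair the libraries. In the equal lists replicate 1 had the higher mean GC content in every group. It stood at 52.1% against 51.5% for TPA, 53.9% against 52.1% for ZnCl2 and 54.0% against 51.0% for untreated cells. Counted within each replicate number as a block, the means were 4308 TPA and 4408.5 ZnCl2 regions in the equal lists and 13935.5 and 4425 in the full lists, with 1 library a side. With the block as a term, limma called 1291 and 1489, and the difference in promoter share was -6.39 (exact sign-flip p = 0.5, the smallest possible).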

Other observations

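The one-treatment regions were spread unevenly over chromosomes. In the equal lists, the TPA set took 2.72% of the merged regions of chromosome 19, whose regions had a mean GC content of 56.8%, and 12.2% of those of chromosome 18, with 48.3%. The ZnCl2 set took 10.9% and 7.52% of them. The order by GC content did not hold throughout. The X chromosome, at a mean GC content of 51.8%, had a ZnCl2 set of 64 of its 388 regions (16.5%) and a TPA set of 5.67%. Chromosomes 14 and 15, at 51.4% and 51.0%, had ZnCl2 sets of 11.5% and 12.9%, also above chromosome 19, and TPA sets of 6.84% and 5.96%. Regions within 2 Mb of a chromosome end made up 2.06% of the TPA set, 7.74% of the ZnCl2 set and 4.96% of all merged regions. In the shared regions near chromosome ends the median difference was -0.20, and 0.06 with ranks within GC bins.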
